A study of Mus musculus with 12 samples.

Results

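The MHC class II presentation genes measured here were *H2-Aa*, *H2-Ab1*, *H2-Eb1*, *Cd74*, *H2-DMa*, *H2-DMb1*, *H2-DMb2*, *H2-Oa*, *H2-Ob*, and *Ciita*. These 10 genes of the 31053 in the matrices were chosen by name for their part in the class II pathway. All 10 had UMIs in macrophages and pDCs of both matrices.

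MHC class II molecules carry peptides from endocytosed protein to the cell surface, where CD4+ T cells read them. An alpha and a beta chain pair in the endoplasmic reticulum around the invariant chain (CD74), which blocks the groove until the complex reaches endosomes; there H2-DM exchanges the last invariant chain fragment for peptide, and H2-O restrains H2-DM. CIITA is the master transactivator of these genes. In tumors, DCs and macrophages are the main class II–bearing cells, with cDC2 known for priming CD4+ T cells and cDC1 for cross-presentation to CD8+ T cells.

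Tumor cells of the spontaneous MMTV-PyMT breast cancer model, in which a mammary promoter drives the oncogene, grew in signaling-competent PyMT-PAR2 WT mice (wild-type in the labels) or in PyMT-PAR2 G37I mice, whose PAR2 resists FXa cleavage. Tumors were digested without further treatment, and beads enriched CD11c+ cells when tumors were at a late stage, or CD4/CD8 T cells when they were midsize. Each selection had 3 samples of either genotype, PyMT-PAR2 WT or PyMT-PAR2 G37I, so that 3 + 3 samples were CD11c-selected and 3 + 3 CD4/CD8-selected. Cells were frozen, thawed, and run on the 10x Genomics platform. The labels give no age.

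Each selection was deposited as 1 pooled matrix of UMIs (unique molecular identifiers, 1 per captured transcript). The CD11c-selected matrix held 11639 cells with at least 200 genes, 123642015 UMIs, and a median of 7943 UMIs per cell. The CD4/CD8-selected matrix held 22806 such cells, 135965765 UMIs, and a median of 4361. Barcodes of these matrices did not name the sample, so genotypes could not be compared from them and no value below has a replicate error. Each barcode list ran through the alphabet 6 times. These 6 stretches per matrix were not linked to samples and serve only to show variation. Within the CD11c-selected matrix, 76 barcodes occurred in more than 1 stretch, and within the CD4/CD8-selected matrix 51 did. A stretch of the CD4/CD8-selected matrix, the third, stood apart in its macrophages, and the main results that rest on it are given with and without it. In the CD11c-selected matrix, the fourth stretch stood apart in depth. It held 360 cells at a median of 31162 UMIs and gave 13314063 UMIs. The other stretches of that matrix held 1561 to 2784 cells at medians of 6290 to 9285.5.

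Cell types were gated on raw UMIs of marker genes, none of them a class II gene. A level is the gate's UMIs of a gene per 1000000 of all its UMIs (CPM), with an exact 95% Poisson interval that covers counting error only. In the CD11c-selected matrix, the gates held 5232 macrophages, 479 cDC1, 136 cDC2, 206 migratory DCs, 115 neutrophils, 73 T cells, and 280 tumor cells. Monocytes (46 cells) and pDCs (30 cells) were few. The CD4/CD8-selected matrix gave 829 macrophages, 57 pDCs, 19084 T cells, and 254 tumor cells, but no more than 4 cells in any other DC gate. Markers not used for gating were checked against all other cells of the matrix. At least 2-fold higher in the gate were 5 of 5 for CD11c-selected macrophages, 3 of 4 for cDC1 and for monocytes, and 4 of 4 for cDC2, migratory DCs, pDCs, neutrophils, T cells, and tumor cells. The remaining marker was *Batf3* in cDC1, at 1.92-fold, and *Vcan* in monocytes, which was below other cells at 0.431-fold on 2 UMIs. For macrophage programs, the number ran from 0 of 5 (Thbs1 and Retnla) to 4 of 5 (Tmem119). Retnla macrophages were below other cells in 4 of the 5 markers, with *Ms4a7* at 0.107-fold and *Apoe* at 0.176-fold, so their identity as macrophages is less certain than that of the other programs. No gate took 41.7% of CD11c-selected cells, with a median depth of 2813 UMIs.

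The alpha chain *H2-Aa*, the beta chains *H2-Ab1* and *H2-Eb1*, and the invariant chain *Cd74* gave most class II UMIs, and their sum is called the core class II level here. In CD11c-selected cells, the core level of cDC2 was 51030 CPM (95% interval, 50698–51363). The core level of cDC1 was 47623 (47471–47776). Macrophages had 32827 (32785–32869) and, as the most numerous gate, held 57.8% of all core UMIs of the matrix. Conventional DCs were thus above the macrophage average, by 1.55-fold in cDC2 and 1.45-fold in cDC1. Monocytes had a core level of 43812 (43096–44537) over 46 cells, and pDCs had 40937 (40204–41680) over 30 cells. Migratory DCs, which carry antigen to lymph nodes, had 26674 (26461–26887), below both conventional DC gates. Cells in no gate had 38288 (38218–38359), so class II expression was not confined to the gated cells.

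**Figure D1:**
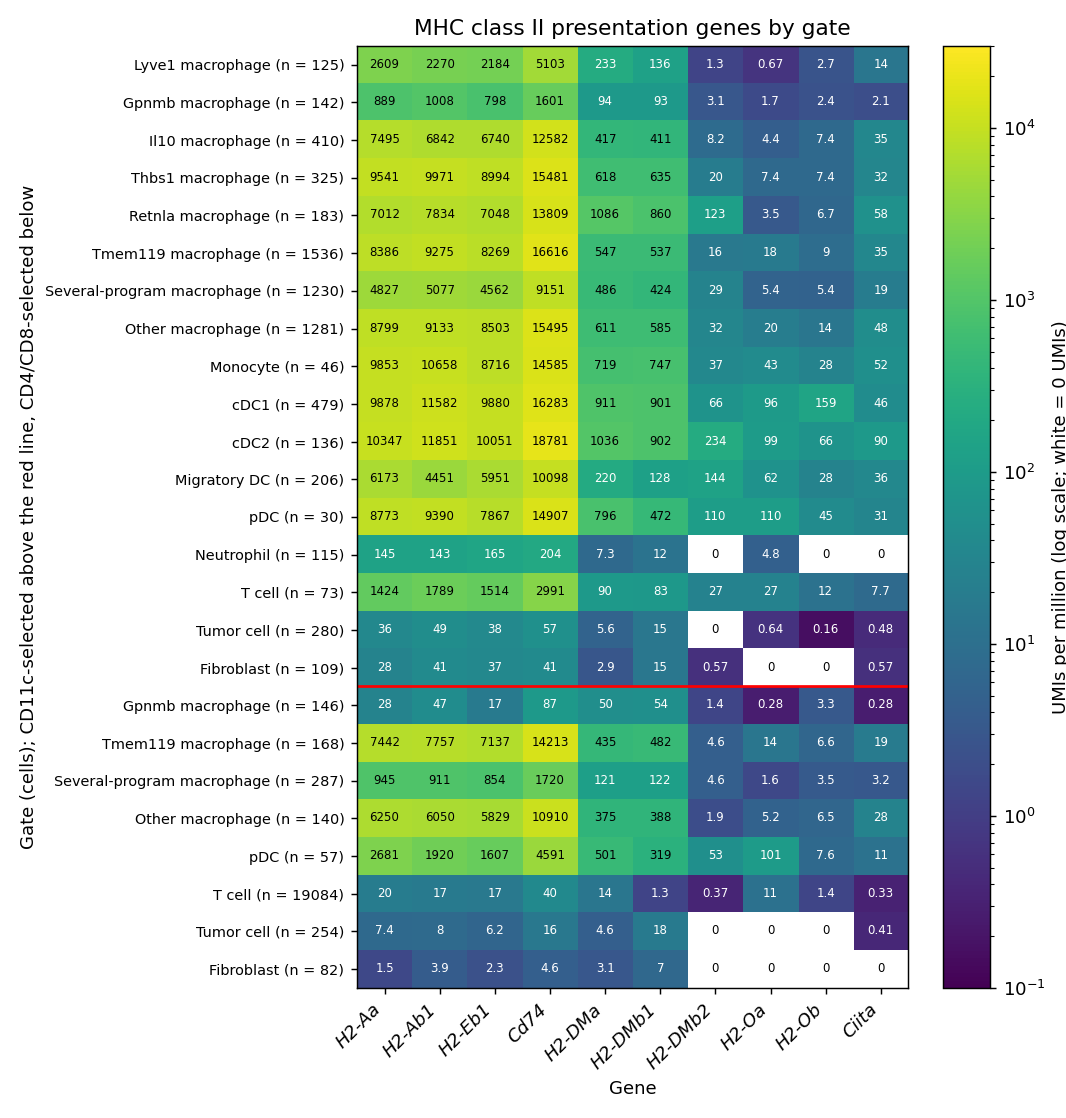
CPM of each class II gene (columns) in each gate (lines; number of cells in parentheses), colored on a log scale, with CD11c-selected cells above the red line and CD4/CD8-selected cells below. cDC1 and cDC2 had the highest *H2-Oa* levels of the CD11c-selected gates with at least 50 cells (96.3 and 99.2), and Gpnmb macrophages the lowest *Cd74* level of the macrophage gates of that matrix (1601).

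Macrophages were further divided by marker programs named for their lead gene. The core level was 43987 (43758–44216) in 325 Thbs1 macrophages and 42545 (42456–42635) in 1536 Tmem119 macrophages. It was 35703 (35512–35894) in 183 Retnla macrophages and 33660 (33472–33849) in 410 Il10 macrophages. Lyve1 macrophages (125 cells), gated on *Lyve1*, *Cd209f*, and *Cd209g*, had 12166 (11989–12345). Gpnmb macrophages (142 cells), gated on *Gpnmb* and *Trem2*, had 4296 (4221–4372), the lowest core level among the macrophage programs. Macrophages with several programs had 23616 (23556–23677), and those with none had 41930 (41807–42054). The class II level of macrophages thus differed widely between programs of the same matrix. Median depth differed as well, from 7211 UMIs in macrophages without a program to 17880 in Gpnmb and 17985 in Retnla macrophages. As programs were gated on fixed minimums of raw UMIs, membership can depend on depth, and its effect on the levels was not tested.

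Over the stretches with at least 10 cells, the core level of all CD11c-selected macrophages was 26418 at the lowest, 31741 at the median, and 40410 at the highest. For cDC1 the values were 43446, 46952, and 56364. For cDC2 they were 45182, 52782, and 53728. The lowest cDC1 and cDC2 stretches lay above the highest macrophage stretch. Thbs1 macrophages (38897–45992), Tmem119 macrophages (35108–64022), and macrophages without a program (37752–47532) overlapped both DC gates and each other. Retnla (32591–38382) and Il10 macrophages (29476–42985) overlapped each other as well, and both overlapped Tmem119 macrophages and macrophages without a program. Il10 macrophages also overlapped Thbs1 macrophages, migratory DCs, and macrophages with several programs. Migratory DCs (20486–32427) overlapped macrophages with several programs (16672–31113). Lyve1 macrophages ranged from 7772 to 17096, and Gpnmb macrophages from 2808 to 4976, with no overlap between these gates. Tumor cells (112–216) and fibroblasts (114–187) overlapped.

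**Figure D2:**
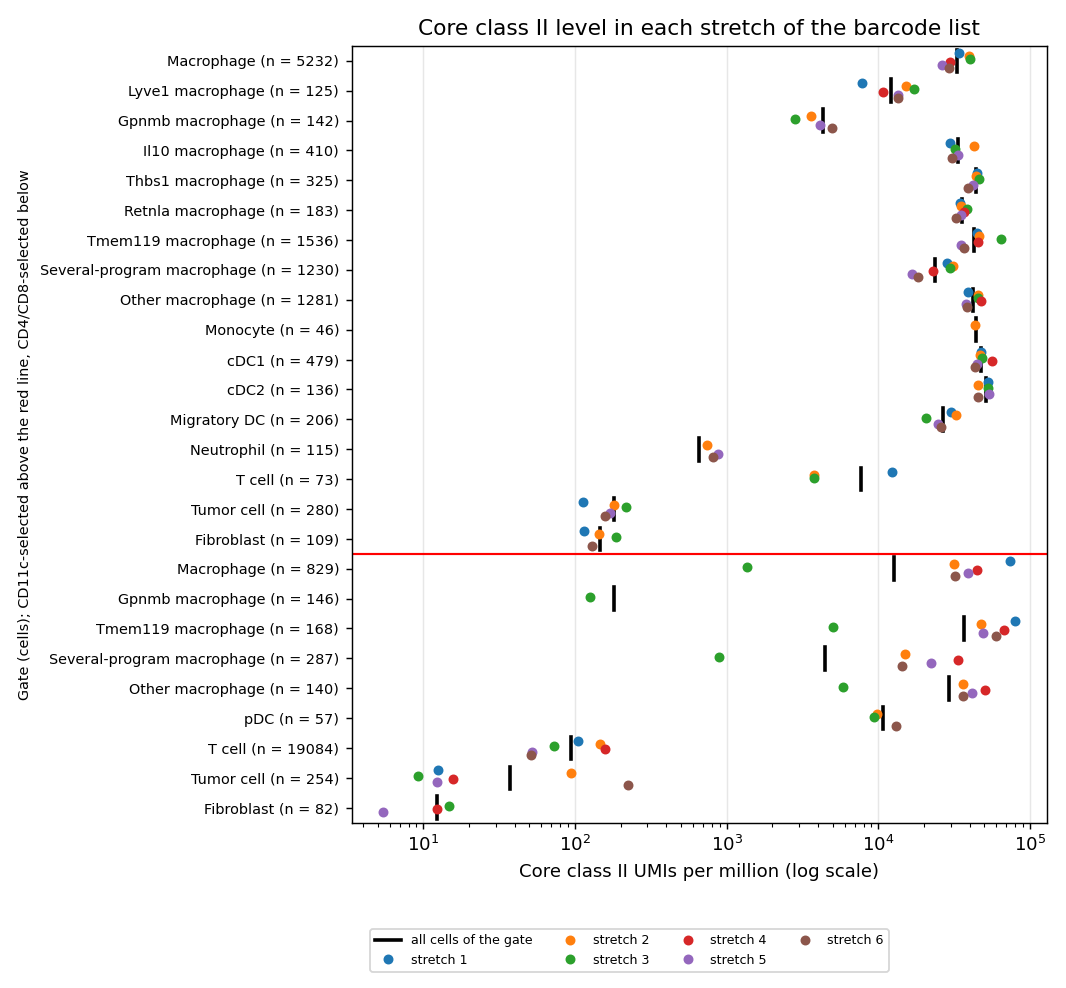
Core class II CPM (log axis) of each gate, as a black bar for all its cells and as 1 colored point for each stretch of the barcode list with at least 10 cells; CD11c-selected cells lie above the red line and CD4/CD8-selected cells below. Green points mark stretch 3, in which CD4/CD8-selected macrophages had 1368 against 31546 to 74380 in the other 5.

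CD4/CD8-selected macrophages had a core level of 12712 (12658–12766). In order of the stretches, the values were 74380, 31546, 1368, 44592, 38787, and 31999. Stretch 3 held 439 of the 829 macrophages and had the lowest level; without it the core level was 37656 (37490–37823). The level of Tmem119 macrophages, the largest single program, was 36549 with it and 54441 without it. Gpnmb macrophages had 179.7 with it and 1140 (993–1302) without it, over the 11 cells that remained. Over all macrophages, *Ciita*, the transactivator, had 8.48 CPM with stretch 3 and 22.4 without it. *H2-DMa* had 205 with it and 497 without it. *H2-Ob* moved less, from 4.30 with it to 5.92 (4.03–8.41) without it. In Gpnmb macrophages *H2-DMa* was 49.7 with it and 31.5 (11.6–68.6) without it, on 6 UMIs, so not every class II gene moved with the core.

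Other genes of the same macrophages showed how far stretch 3 differed. Its class I level was within reach of the others: *B2m* had 2950 CPM in stretch 3 and 2918 to 4288 elsewhere, and *H2-K1* had 2266 against 2013 to 2826. Its level of the complement gene *C1qa* was 5438, with 5314 to 6547 in the other stretches. *Spp1*, which encodes osteopontin, was at 12462 in stretch 3 and at 63.1 to 5757 elsewhere. *Hmox1*, a heme-degrading enzyme, was at 7563 and at 423 to 975.1 elsewhere. Macrophages with a core level under 2000 CPM made up 90.7% of stretch 3 and 0 to 19.9% of the others. Stretch 3 was therefore low in core class II at a class I level like that of other stretches, and the cause was not tested.

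Levels of a gate can hide differences between its cells. Every cell was therefore thinned to 1000 UMIs, and shallower cells were left out (26 of 5232 macrophages). CD11c-selected macrophages then had a median of 35 core UMIs per cell, with quartiles of 14 and 54. cDC1 had a median of 47, with quartiles of 38 and 56.8. Not 1 of 478 cDC1 had 5 or fewer core UMIs, which allows a share of up to 0.628%. By contrast, 16.4% of macrophages (exact 95% interval, 15.4%–17.5%) were at 5 or fewer. In Gpnmb macrophages that share was 76.8% (68.9%–83.4%), in Lyve1 macrophages 40.8% (32.1%–49.9%), and in Retnla macrophages 0.546% (0.0138%–3.01%). Retnla macrophages were thus uniform in class II, whereas the Gpnmb and Lyve1 programs held many cells with few or no class II UMIs.

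Migratory DCs were the most uneven of the CD11c-selected DC gates with at least 50 cells. Their median was 19 core UMIs of 1000, with a 10th percentile of 3 and a 90th percentile of 53, and 20% (14.8%–26.1%) were at 5 or fewer. In cDC2 the 10th percentile was 26.5 and the 90th was 72. CD4/CD8-selected pDCs had a median of 11, with quartiles of 5 and 16, so class II was spread over most of them. CD4/CD8-selected macrophages had a median of 1 and a 75th percentile of 37.5. The macrophage median rests on stretch 3: the median core level over its cells was 61.8 CPM, against 30127 to 82109 in the other stretches.

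**Figure D3:**
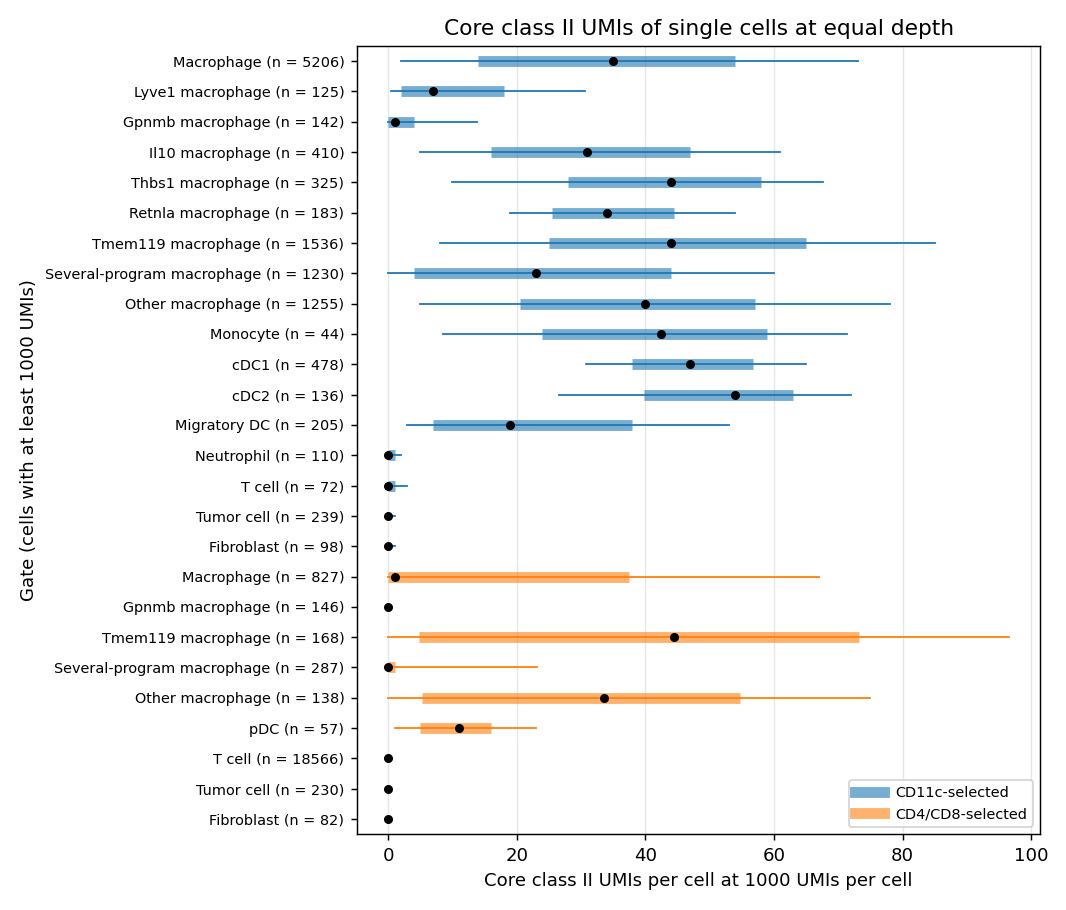
Core class II UMIs per cell after thinning each cell to 1000 UMIs, by gate (number of cells in parentheses): dots are medians, thick bars the quartiles, and thin lines the 10th to 90th percentiles. The thick bar of cDC1 runs from 38 to 56.8, that of CD11c-selected macrophages from 14 to 54, and that of migratory DCs from 7 to 38.

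The share of cells with a UMI is given for the beta chain gene *H2-Ab1*. At 1000 UMIs per cell, it was detected in 86.0% of macrophages (85.0%–86.9%), 99.8% of cDC1 (98.8%–100%), 97.1% of cDC2 (92.6%–99.2%), and 67.3% of migratory DCs (60.4%–73.7%). Taken as background here, the share was 16.4% in neutrophils (10.0%–24.6%), 19.4% in T cells (11.1%–30.5%), and 5.86% in tumor cells (3.24%–9.63%). Whether these types transcribe the gene was not tested. Median depths before thinning were 10840 UMIs in macrophages, 15262 in cDC1, 9960 in migratory DCs, 2976 in neutrophils, 4436 in T cells, and 14378 in tumor cells. The background shares were far below those of all macrophages and of these DCs. In Gpnmb macrophages the share was 31.7% (24.1%–40.0%), and this interval overlapped those of T cells and neutrophils but not that of tumor cells. Their core level of 4296 CPM was above the 657 of neutrophils and the 181 of tumor cells, and below the 7719 of T cells. For the rare transcripts, detection was limited by depth: *Ciita* was found in 3.30% of macrophages (2.84%–3.83%) and in 0 of 239 tumor cells, which allows up to 1.26% at that depth. Without thinning it was found in 23.5% of macrophages and 1.07% of tumor cells.

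H2-DM, the peptide editor, pairs the alpha chain from *H2-DMa* with a beta chain from *H2-DMb1* or *H2-DMb2*. *H2-DMa* was at 535 CPM (529–540) in CD11c-selected macrophages, 911 (890–932) in cDC1, and 1036 (989–1084) in cDC2. Retnla macrophages, at 1086 (1053–1120), were level with cDC2, although their core level was lower. *H2-DMb1* followed the alpha chain, with 493 (488–498) in macrophages, 901 (880–922) in cDC1, and 902 (858–947) in cDC2. Lyve1 macrophages had 233 of *H2-DMa* and 136 of *H2-DMb1*, and Gpnmb macrophages had 94.1 and 93.0. Migratory DCs had 220 of *H2-DMa* (201–240) and only 129 of *H2-DMb1* (114–144), less than macrophages of most programs.

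The other beta chain, *H2-DMb2*, had a different pattern. It was at 27.4 (26.2–28.7) in macrophages, 65.6 (60.1–71.5) in cDC1, 234 (212–258) in cDC2, and 144 (129–160) in migratory DCs. Among macrophage programs, Retnla macrophages reached 123 (112–135) and the others stayed between 1.35 and 28.6, with 32.0 in macrophages without a program. Since UMIs were not divided by transcript length, ratios of genes are compared only between gates. UMIs of *H2-DMb2* per UMI of *H2-DMb1* were 0.0557 (exact conditional interval, 0.0532–0.0583) in macrophages and 0.0728 (0.0664–0.0796) in cDC1. The ratio was 0.259 (0.232–0.289) in cDC2 and 1.12 (0.954–1.32) in migratory DCs. In Tmem119 macrophages it was 0.0299 (0.0267–0.0334), and in Retnla macrophages 0.143 (0.130–0.158). The share of the beta chains thus shifted toward *H2-DMb2* from macrophages over cDC2 to migratory DCs. The genes share 19.5% of the 60-base windows of *H2-DMb1*, so some reads can come from either; whether such reads moved the ratio was not tested.

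H2-DM UMIs per UMI of the 3 chains were 0.0520 (0.0517–0.0524) in macrophages, 0.0599 (0.0589–0.0609) in cDC1, and 0.0673 (0.0652–0.0696) in cDC2. Retnla macrophages had 0.0945 (0.0923–0.0967), the highest value of the macrophage programs. Migratory DCs had 0.0297 (0.0280–0.0315), the lowest of the macrophage and DC gates of the CD11c-selected matrix. The loading machinery was thus lower relative to its substrate in migratory DCs than in the DC gates they were compared with.

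*H2-Oa* and *H2-Ob* encode the alpha and beta chains of the H2-DM inhibitor H2-O. In macrophages *H2-Oa* was at 11.0 (10.2–11.8) and *H2-Ob* at 7.82 (7.19–8.50). In cDC1 *H2-Oa* was at 96.3 (89.6–103) and *H2-Ob* at 159 (150–168). In cDC2 *H2-Oa* was at 99.2 (85.1–115) and *H2-Ob* at 66.0 (54.5–79.0). Although cDC1 were only 4.12% of the cells, they held 38.7% of all *H2-Ob* UMIs of the matrix. H2-O UMIs per H2-DM UMI were 0.0178 (0.0169–0.0188) in macrophages, 0.136 (0.130–0.142) in cDC1, 0.0761 (0.0673–0.0857) in cDC2, and 0.184 (0.158–0.214) in migratory DCs. Retnla macrophages had 0.00489 (0.00346–0.00672), the lowest of the macrophage programs. The ratio of inhibitor to editor thus placed DCs above every macrophage program.

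The chains of H2-O did not move as 1 unit. *H2-Oa* per *H2-Ob* was 1.40 (1.26–1.57) in macrophages, 0.606 (0.553–0.664) in cDC1, 1.504 (1.18–1.92) in cDC2, and 2.20 (1.63–3.01) in migratory DCs. Of these gates, cDC1 had the lowest ratio. In CD4/CD8-selected pDCs the ratio was 13.25 (4.88–50.4), resting on 4 UMIs of *H2-Ob*. The chains of the peptide-binding molecules varied less. *H2-Aa* per *H2-Ab1* was 0.941 (0.937–0.945) in macrophages, 0.853 (0.845–0.861) in cDC1, and 0.873 (0.856–0.891) in cDC2. It was 1.39 (1.35–1.42) in migratory DCs and 1.15 (1.10–1.204) in Lyve1 macrophages. The ratio of *H2-Eb1* to *H2-Ab1* was 1.34 (1.30–1.37) in migratory DCs against 0.906 (0.903–0.910) in macrophages. Migratory DCs were therefore low in *H2-Ab1* relative to both other chains. Over macrophages, monocytes, and DCs of the CD11c-selected matrix, *Cd74* per UMI of the 3 chains ranged from 0.499 (0.482–0.517) in monocytes to 0.722 (0.701–0.744) in Lyve1 macrophages, with 0.619 (0.618–0.621) in all macrophages and 0.609 (0.599–0.619) in migratory DCs.

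**Figure D4:**
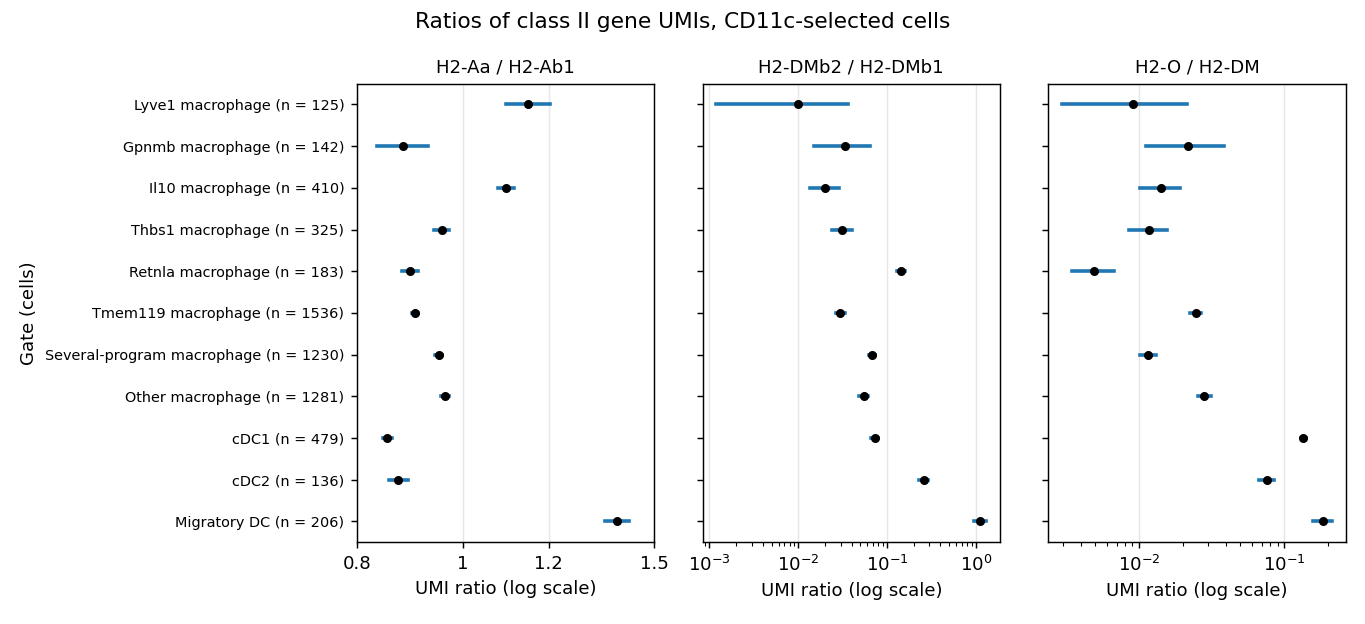
Ratios of UMIs (log axes) of *H2-Aa* to *H2-Ab1*, *H2-DMb2* to *H2-DMb1*, and H2-O to H2-DM genes in CD11c-selected gates (number of cells in parentheses); dots are ratios and bars exact 95% intervals. Migratory DCs had the highest value in each panel (1.39, 1.12, and 0.184).

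*Ciita*, the transactivator, was rare everywhere. It was at 30.6 CPM (29.3–31.9) in macrophages, 46.2 (41.6–51.2) in cDC1, 89.6 (76.2–105) in cDC2, and 35.8 (28.4–44.5) in migratory DCs. Among macrophage programs it was highest in Retnla macrophages, at 57.8 (50.4–66.0), followed by Il10 and Tmem119 macrophages, at 34.8 and 34.7. Lyve1 macrophages had 14.2 (8.77–21.7) and Gpnmb macrophages 2.07 (0.759–4.499). The gates with little core class II were thus also low in *Ciita*. Across stretches, *Ciita* in migratory DCs ranged from 4.40 to 66.0 among those with at least 10 cells, so its level there was poorly fixed.

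For comparisons between gates, each gene with at least 10 CPM in at least 1 of the gates was called at a difference of 2-fold or more, without a test. Between cDC1 and macrophages, 3 of the 10 class II genes were called higher, against 8.69% of all genes tested, and 0 lower, against 17.5%. *H2-Ob* was 20.3-fold higher in cDC1 (exact 95% interval, 18.4–22.5), *H2-Oa* 8.77-fold (7.92–9.70), and *H2-DMb2* 2.39-fold (2.17–2.64). Their folds within the 6 stretches ran from 15.2 to 25.4, from 7.01 to 11.2, and from 1.38 to 4.41. The other 7 were between 1.30- and 1.83-fold higher. The median fold over the 10 genes was 1.67, against 0.981 over all genes tested.

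Between cDC2 and macrophages, 4 of the 10 were called higher, against 6.28% of all genes tested, and 0 lower, against 11.5%. *H2-Oa* was 9.03-fold higher in cDC2 (7.63–10.7), *H2-DMb2* 8.53-fold (7.65–9.49), *H2-Ob* 8.43-fold (6.85–10.3), and *Ciita* 2.93-fold (2.48–3.44). All 4 were above 1 in each of 5 stretches with at least 10 cells of both gates. The median fold was 1.88, against 0.968 over all genes tested. Both DC gates thus exceeded macrophages in the H2-O genes and in *H2-DMb2* by more than in the core genes. cDC2 and cDC1 were not compared with each other in this way. Monocytes, at 46 cells, had 2 of 10 called higher than macrophages, against 8.86%, and 0 lower, against 11.1%. These were *H2-Oa* at 3.92-fold (2.13–6.61) on 14 UMIs and *H2-Ob* at 3.54-fold (1.61–6.76) on 9 UMIs. At a minimum of 50 CPM, 0 of the class II genes were called higher in monocytes, against 7.48% of all genes.

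Migratory DCs were compared with cDC1 and cDC2 together (615 cells) to see which class II genes differed between these gates. Of the 10 genes, 4 were called lower, against 17.2% of all genes tested, and 0 higher, against 14.9%. *H2-DMb1* was 7.01-fold lower (6.24–7.91), *H2-Ob* 5.02-fold (3.90–6.55), *H2-DMa* 4.25-fold (3.88–4.66), and *H2-Ab1* 2.61-fold (2.56–2.67). Each was lower in all 5 stretches with at least 10 cells of both gates, over a range of 4.09- to 29.4-fold for *H2-DMb1* and 2.98- to 6.09-fold for *H2-DMa*. By contrast, *H2-DMb2* was 1.49-fold higher (1.31–1.70), in 4 of 5 stretches. That difference holds only against cDC1, which were most of the reference. The level of 144 CPM in migratory DCs was above the 65.6 of cDC1 and below the 234 of cDC2. *H2-Ob*, at 28.3 CPM, was nearer to the 66.0 of cDC2 than to the 159 of cDC1. The core genes *H2-Aa*, *H2-Eb1*, and *Cd74* were 1.61-, 1.67-, and 1.66-fold lower. The median fold was 0.602, against 0.907 over all genes tested. The difference between the gates was therefore uneven between class II genes, and also between the DM beta chain genes.

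pDCs were compared with cDC2 across the matrices, since only the CD4/CD8-selected matrix held 50 or more. Selection and tumor stage differ between the matrices and cannot be told apart from the cell type. Of the 10 genes, 9 were called lower in pDCs, against 18.1% of all genes tested, and 0 higher, against 22.5%. *H2-Ab1* was 6.17-fold lower (5.79–6.58), *H2-Eb1* 6.25-fold (5.84–6.71), and *Cd74* 4.09-fold (3.92–4.26). *H2-DMa* was 2.07-fold lower (1.82–2.36), near the limit of the call. *Ciita* was 7.87-fold lower (3.54–21.8) on 6 UMIs. Only *H2-Oa* did not differ, at 100.6 CPM in pDCs against 99.2 in cDC2, a ratio of 1.01 (0.731–1.39). Without stretch 3, pDCs (47 cells) again had 100.6 of *H2-Oa*, and their core level was 11048, against 10799 with it; *H2-DMa* was then no longer called. The 30 CD11c-selected pDCs had a core level of 40937, and 8 of them were at 5 or fewer core UMIs of 1000. Their quartiles were 5.25 and 76, so the gate was uneven. They had *Ctss* at 2990 CPM and *Cd86* at 224, against 3909 and 212 in macrophages of that matrix and 765 and 11.4 in CD4/CD8-selected pDCs. *Irf8*, at 641, lay between 176 in those macrophages and 1721 in those pDCs. Whether this gate holds other cells was not tested, so it is an uncertain reference for pDCs.

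Gpnmb macrophages were set against all other CD11c-selected macrophages after their low level had been seen. The other side includes the 1230 macrophages with several programs, which can hold cells that also passed the *Gpnmb* and *Trem2* minimums. Of the 9 class II genes tested, 9 were called lower, against 5.65% of all genes, and 0 higher, against 3.83%; *H2-Ob* was below 10 CPM in both gates. *Ciita* was 15.4-fold lower (7.06–42.0) on 6 UMIs, *H2-Eb1* 8.39-fold (8.05–8.74), and *Cd74* 8.13-fold (7.90–8.37). *H2-DMa* was 5.88-fold lower (5.22–6.65) and *H2-DMb1* 5.48-fold (4.86–6.20). Within each of 4 stretches, the core level was 6.08- to 14.8-fold lower. *H2-DMa* and *H2-DMb1* thus fell less than the chains they serve, whereas *H2-DMb2* was 9.18-fold lower (4.83–20.1) on 9 UMIs. H2-DM per chain UMI was 0.0706 (0.0646–0.0769) against 0.0520 in all macrophages.

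Neutrophils, T cells, and tumor cells showed how much class II RNA appears outside the macrophage, monocyte, and DC gates. CD11c-selected neutrophils had a core level of 657 (581–740) and tumor cells 181 (170–192). The 73 T cells of that matrix had 7719 (7482–7961), but their median was 0 core UMIs of 1000 and 90.3% (81.0%–96.0%) were at 5 or fewer, so few cells carried the level. CD4/CD8-selected T cells had 94.1 (92.2–96.0), and tumor cells 37.3 (33.0–41.9). Tumor cells there ranged from 9.28 to 222 over the stretches, and without stretch 3 they had 55.4 (48.7–62.7).

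The make-up of these class II UMIs differed between types. CD4/CD8-selected T cells had 14.3 CPM of *H2-DMa* (13.6–15.05) but 1.33 of *H2-DMb1* (1.12–1.57), a ratio of 10.8 (9.01–12.9) against 0.964 (0.919–1.01) in macrophages of the matrix. They had 10.9 of *H2-Oa* (10.2–11.5) and 1.43 of *H2-Ob* (1.21–1.68), a ratio of 7.603 (6.39–9.10). T cells were 83.7% of the cells of the matrix and held 83.1% of its *H2-Oa* UMIs, but 3.13% of its core UMIs. In tumor cells the same genes lay the other way: *H2-DMa* per *H2-DMb1* was 0.256 (0.170–0.375), and *H2-Oa* had 0 UMIs, which allows up to 0.405 CPM. Without stretch 3 the T cell ratios were 10.9 (8.95–13.3) and 7.99 (6.63–9.70), the tumor cell ratio was 0.357 (0.217–0.571), and the limit of *H2-Oa* in tumor cells was 0.667 CPM. *H2-Oa* and *H2-DMa* of T cells and *H2-DMb1* of tumor cells therefore stood apart from the macrophage profile beyond counting error. At 1000 UMIs per cell, *H2-Oa* was found in 1.04% of T cells (0.904%–1.202%) and 0 of 230 tumor cells, which allows up to 1.30%. This limit lies above the T cell share, so these shares do not separate the types at that depth. Without thinning *H2-Oa* was found in 5.17% of T cells and 0% of 254 tumor cells, although the median depth was 4476 UMIs in T cells and 19026 in tumor cells. Of CD11c-selected tumor cells, 1.43% had a UMI of it without thinning.

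The annotation (GENCODE M21, GRCm38) places 8 of the 10 genes in 224 kb of the class II region, chr17:34092340-34316674. *Ciita* lies at chr16:10480059-10528418 and *Cd74* at chr18:60803848-60812652. Exons of 4 of the genes overlap those of another gene. *H2-DMa* overlaps *Brd2* on the opposite strand, which was at 318 CPM in macrophages and 415 in CD4/CD8-selected T cells. *H2-Oa* overlaps *BC051537* on the opposite strand, which was at 0.0587 in those T cells, where *H2-Oa* was at 10.9. *Ciita* overlaps *Dexi* on the opposite strand, at 26.8 in those T cells against 0.332 of *Ciita*. *Cd74* overlaps *Mir5107* on its own strand, which is not in the matrices. Whether these overlaps moved a level was not tested.

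The neighboring genes of the region gave a different view. *Tap1*, *Tap2*, *Psmb8*, and *Psmb9*, which serve class I loading, were called higher in cDC1 than in macrophages, by 3.59-, 3.52-, 3.08-, and 5.09-fold, as 4 of 6 neighbors tested, against 8.69% of all genes. In cDC2, monocytes, and Gpnmb macrophages, 0 of 6 were called in either direction (6.28%, 8.86%, and 3.83% of all genes were higher and 11.5%, 11.1%, and 5.65% lower). In pDCs 1 of 6 was higher than in cDC2, against 22.5%, *Psmb9* at 2.27-fold. Its level in the 30 CD11c-selected pDCs was 158 CPM, against 125 in cDC2 of their matrix. In migratory DCs 1 of 7 was called higher than in cDC1 and cDC2, against 14.9%: *H2-Eb2*, a class II beta chain gene beside *H2-Eb1*, was at 168 CPM against 3.30, or 50.9-fold higher (35.5–75.5). Its level in all CD11c-selected macrophages was 0.843. No 60-base window of its exons matched *H2-Eb1*. *H2-Eb2* was thus the only class II gene measured in the region that was called higher in migratory DCs.

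Genes that process antigen were often called against the direction of the class II genes, although over all gates only *Ctsl* had a negative correlation with the core level (−0.16), and *Ctss* (0.779) and *Lgmn* (0.563) had positive ones. Without stretch 3 of the CD4/CD8-selected matrix, these values were −0.02, 0.869, and 0.729. Of 6 processing genes, 5 were called lower in cDC1 than in macrophages, against 17.5% of all genes tested, with a median fold of 0.0483 over the list. The lysosomal protease *Ctsd* was 76.8-fold lower, *Ctsl* 44.9-fold, *Lgmn* 25.4-fold, and *Ctsb* 17.4-fold. In cDC2, 5 of 6 were lower as well, against 11.5%, with a median fold of 0.102, and *Ctsl*, at 22.3-fold, was the largest. Migratory DCs had 2 of 6 called higher than the conventional DCs, against 14.9%, *Lgmn* at 4-fold and *Ctsl* at 2.35-fold. *Ctsl* was nearer to cDC2, at 77.3 CPM against 55.8. Gpnmb macrophages had 3 of 6 called higher than other macrophages, against 3.83%, *Ctsl* at 4.93-fold, *Ctsd* at 4.38-fold, and *Ctsb* at 2.24-fold. Low class II genes and high cathepsins thus occurred in the same gate. Monocytes had 3 of 6 lower than macrophages, against 11.1%, with *Ctsd* at 7.01-fold. In pDCs, 2 of 6 were higher than in cDC2, against 22.5%, *Ctsl* at 24.9-fold and *Ctsb* at 2.77-fold, and *Sppl2a*, which degrades the invariant chain stub, was 2.17-fold lower. This comparison is across matrices: the 30 CD11c-selected pDCs had *Sppl2a* at 141 CPM, against 157 in cDC2 of their matrix. *Ctsl*, *Ctsb*, *Ctsd*, *Lgmn*, and *Ctss* were higher in these pDCs, at 434, 1543, 1574, 992, and 2990 against 55.8, 405, 197, 169, and 1378. Macrophages of that matrix had 1242, 3871, 3405, 1707, and 3909.

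Regulators of class II transcription were also compared. In cDC1, 1 of 12 tested was called higher than in macrophages, *Irf8* at 5.70-fold, and 1 lower, *Irf4* at 6.51-fold, against 8.69% and 17.5% of all genes. In cDC2, 2 of 13 were higher and 1 lower, against 6.28% and 11.5%, and these genes went the other way, with *Irf4* 3.77-fold higher and *Irf8* 3.21-fold lower. *Rfx5*, a subunit of the factor that binds the X box, was 3.28-fold higher there (2.00–5.12) on 21 UMIs. In migratory DCs, *Irf1* at 8.31-fold and *Irf4* at 2.09-fold were among the genes called higher of 13 tested, against 14.9% of all genes. The call of *Irf4* holds only against cDC1, as its level of 47.7 CPM lay between 4.30 in cDC1 and 105 in cDC2. Another 3 were lower there, against 17.2%: *Ifngr1*, a chain of the interferon-gamma receptor, at 3.69-fold, *Rfxap* at 2.07-fold, and *Nfyb* at 2.02-fold. *Rfxap*, at 25.2 CPM, was not below the 23.1 of cDC2. *Nfyb*, at 10.2 CPM on 23 UMIs, was nearer to the 15.8 of cDC2 than to the 21.6 of cDC1. In pDCs 5 of 14 were higher than in cDC2, against 22.5%, with *Irf8* at 31.5-fold, and 4 were lower, against 18.1%, with *Spi1* at 4.82-fold. The 30 CD11c-selected pDCs had *Irf8* at 641 CPM and *Spi1* at 193, against 54.7 and 320 in cDC2 of their matrix. In Gpnmb macrophages only *Irf4* of 12 was called, at a ratio of 0.0830 (0.0333–0.171) on 7 UMIs, against 5.65% lower. In monocytes 2 of 12 were higher than in macrophages, *Ifngr1* at 2.45-fold and *Irf1* at 2.26-fold, against 8.86%, and 2 were lower, both on 2 UMIs, against 11.1%.

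Turnover of class II at the surface depends on the ubiquitin ligase encoded by *March1*, which CD83 opposes. In migratory DCs *March1* had 2 UMIs, or 0.883 CPM against 36.2 in cDC1 and cDC2, a ratio of 0.0244 (0.00294–0.0887). This was the only 1 of 3 turnover genes called, against 17.2% of all genes lower. *March8*, a related ligase, was 14.6-fold lower in cDC1 and 4.89-fold lower in cDC2 than in macrophages, as 1 of 2 genes called of 4 in cDC1, against 17.5%, and the only 1 of 4 in cDC2, against 11.5%. *Cd83* was 4.70-fold lower in Gpnmb macrophages than in others, as 1 of 4, against 5.65%, and 13.0-fold lower in pDCs than in cDC2 across the matrices, as 1 of 2 called of 3, against 18.1%. The 30 CD11c-selected pDCs had 409.9 CPM of *Cd83*, against 791 in cDC2. In monocytes *March1* was the only 1 of 4 called, at a ratio of 0.266 (0.0322–0.963) on 2 UMIs, against 11.1% lower. The lower level of *March1* in migratory DCs thus rests on 2 UMIs, and the interval of its ratio lies below the call.

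The ligands that accompany antigen were also compared. In migratory DCs, 4 of 6 costimulation genes were called higher, against 14.9% of all genes, *Cd40* at 12.0-fold, *Pdcd1lg2* at 11.2-fold, *Cd274* at 11.0-fold, and *Cd80* at 3.04-fold. *Cd80* was nearer to cDC2, at 219 CPM against 153. In cDC2, *Pdcd1lg2* was 5.73-fold and *Cd80* 4.41-fold higher than in macrophages, as 2 of 6, against 6.28%. In cDC1, *Cd40* was 2.78-fold lower, as 1 of 5, against 17.5%. In pDCs all 6 were lower than in cDC2, against 18.1%, *Cd86* by 21.3-fold and *Cd80*, with 0 UMIs, by at least 26.8-fold. This is the comparison across matrices: the 30 CD11c-selected pDCs had *Cd86* at 224 CPM and *Cd274* at 37.9, against 243 and 44.0 in cDC2 of their matrix. The other genes of the list were lower in these pDCs as well. *Cd80* was at 24.1 against 153, *Cd40* at 17.2 against 50.2, *Icosl* at 10.3 against 20.9, and *Pdcd1lg2* at 0 against 10.1. In Gpnmb macrophages, 3 of 5 were lower, against 5.65%, *Icosl* by 8.18-fold on 4 UMIs, *Cd86* by 3.62-fold, and *Cd80* by 3.13-fold. In monocytes *Cd80* was 2.66-fold higher than in macrophages, as 1 of 5, against 8.86%.

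To describe which genes had the pattern most like core class II, log2 levels (with 1 CPM added) were correlated over the 23 gates of both matrices with at least 50 cells. These gates share libraries, and r is given as a description only. Of 6406 genes with 50 CPM in at least 1 gate, *Fgd2* (r = 0.950), *Cd83* (0.941), *Pld4* (0.925), *Plbd1* (0.920), and *Irf5* (0.915) were the most alike. *Dennd4b*, *Twf2*, *Cd86*, *Slamf9*, *Fam46c*, *Pkib*, *Actr3*, *Prcp*, *Gm6377*, and *Mgl2* followed, from 0.894 to 0.867. Among the class II genes outside the core, *H2-DMa* (0.946), *Ciita* (0.933), and *H2-DMb1* (0.922) were close to it. *H2-Ob* (0.785), *H2-DMb2* (0.772), and *H2-Oa* (0.653) were less so. Without stretch 3 of the CD4/CD8-selected matrix, 20 gates had at least 50 cells, and 8 of the 15 non-class II genes named above were again among the 15 most alike, with *Cd83* (0.978) and *Fgd2* (0.966) first. *H2-DMa* then had 0.966, *H2-DMb1* 0.946, *Ciita* 0.938, *H2-Ob* 0.772, *H2-DMb2* 0.757, and *H2-Oa* 0.606. *H2-DMa*, *H2-DMb1*, and the transactivator thus tracked the core over gates more closely than the H2-O genes or *H2-DMb2* did.

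Class II genes that move together are known for an X box and a Y box upstream of their start. RefSeq promoters (GRCm38.p6, 250 bases before to 50 after the start) were listed for 7 of the 10 genes, and were missing for *H2-Ab1*, *Cd74*, and *Ciita*. These genes had 8 windows, as *H2-DMa* had a pair, and a gene was counted when any of its windows matched. The Y box core GATTGG was present on either strand in 7 of 7, and in 16.1% of 32851 promoters. In *H2-DMa* it was absent from the first window and began 199 bases before the start in the other. The X box core AGCAACAG was in 0 of 7 and in 2.26% of promoters, and the looser AGNNACNGA in 4 of 7 and 17.7%. The shorter AGNAAC, chosen after the data were seen and overlapping AGCAACAG, was in 5 of 7 and in 48.1%. AGNNACNGA ahead of GATTGG on the same strand, with 20 to 45 bases between their first bases, was in 2 of 7 (*H2-Eb1* and *H2-DMb1*) and 0.128% of promoters, and AGCAACAG ahead of it in 0 of 7 and 0.0304%. AGNAAC ahead of GATTGG at that spacing was in 4 of 7 (*H2-Eb1*, *H2-DMb1*, *H2-Oa*, and *H2-Ob*, at 32, 33, 33, and 30 bases) and in 0.487% of promoters. A match describes letters and not a bound site.
The 90 bases from 120 to 31 before the start are shown for *H2-Aa* (chr17:34287854-34287943, minus strand), for *H2-Eb1* (chr17:34305747-34305836, plus strand), and for *H2-Ob*, the gene with the largest fold in cDC1 (chr17:34238785-34238874, plus strand). Capitals mark GATTGG and an AGNAAC match ahead of it.
H2-Aa: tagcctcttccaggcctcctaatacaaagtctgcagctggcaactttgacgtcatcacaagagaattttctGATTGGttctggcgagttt
H2-Eb1: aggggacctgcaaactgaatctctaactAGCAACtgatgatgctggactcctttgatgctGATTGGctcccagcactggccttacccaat
H2-Ob: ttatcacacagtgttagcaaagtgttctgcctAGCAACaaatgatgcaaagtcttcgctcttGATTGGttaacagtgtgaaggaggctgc
GATTGG began 49 bases before the start in *H2-Aa*, 60 in *H2-Eb1*, and 58 in *H2-Ob*. It began 62 bases before it in *H2-DMb1*, 91 in *H2-DMb2*, and 44 in *H2-Oa*.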

How the data were processed

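Counts were used as deposited by the authors (integer UMIs, 1 matrix a selection); per the submitters' processing notes, Cell Ranger 3.0.2 and mm10 were used. Members and gene lists were chosen with earlier results of these data known. Cells with at least 200 genes were gated on raw UMIs, and cells in several gates (42 and 35) were left out. No doublet caller was run, so doublets may remain within gates. Levels are UMIs per 1000000 UMIs of a gate (CPM), with exact 95% Poisson intervals. Shares above 0 have Clopper-Pearson intervals, and folds and ratios conditional binomial intervals, all for counting error only. Cells were thinned without replacement (seed 1). A side with 0 UMIs was set to 3 counts. The limit given for a level with 0 UMIs or a share with 0 cells is likewise that of 3 counts and not an exact interval. As each matrix is 1 pooled sample, no test was run and no p-value is given. Named genes were all members, list genes past 2-fold (at most 4 a list and comparison, with the largest folds), and the 15 genes of highest r. *Ifi30*, *H2-Ea*, and *H2-Ea-ps* were not in the matrices. A withheld item of a gene list is not reported here. The comparison of Gpnmb macrophages, leaving out stretches for counts and ratios, the count of cells under 2000 CPM, r without stretch 3, and the motif AGNAAC were chosen after the data were seen. Python 3.11.15, numpy 2.4.6, scipy 1.17.1, and matplotlib 3.10.9 were used, and the fold step was tested on simulated data.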

Additional observations from a re-analysis of the deposited data

How the results depend on the processing

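No paired analysis was possible because barcodes of the matrices used name no sample; the processed RDS objects named by the paper were not used. No fold of the core level changed direction in any of the 89 alternatives run over 6 comparisons (cDC1 and cDC2 against macrophages, migratory DCs against both, monocytes against macrophages, pDCs against cDC2, and Gpnmb macrophages against others), but 57 lay outside the counting interval. In that order, the folds were 1.57, 1.48, 0.466, 1.29, 0.239, and 0.0965 with every gate minimum doubled and exclusions set to 0. They were 1.28, 1.39, 0.505, 1.11, and 0.223 for the first 5 as means over cells. Without mitochondrial and ribosomal protein genes in the total, they were 1.56, 1.64, 0.529, 0.225, and 0.122 (monocytes not moved); this shifts all other genes by 0.11 (log2) for cDC1. Without the deepest 5% of cells, cDC1, cDC2, monocytes, and Gpnmb macrophages gave 1.35, 1.47, 1.199, and 0.120. Counting cells of several gates in each gave 1.43, 1.497, 0.575, 1.26, and 0.225 for the first 5. Subtracting the T cell level gave 1.59, 1.73, 0.468, 1.44, and 0.247, and no value for Gpnmb macrophages, whose level lies below it (1 of 7 results left without a value). In CD11c-selected cells the T cell level was carried by few cells. Neutrophils of that matrix had 657 and tumor cells 181, both below the T cell level. Whether the T cell level is background was not tested. Leaving out 1 stretch gave 1.38–1.53, 1.46–1.67, 0.523–0.603, 1.18–1.41, 0.202–0.222, and 0.114–0.136. The macrophage core level under these settings, in the same order, was 30755, 37094, 39762, 35445, and 25108 in CD11c-selected cells (several gates not moved), with 31225–34707 for left-out stretches. In CD4/CD8-selected cells it was 11560, 20352, 14936, 14345, and 12618, with 9801–37656, the highest without stretch 3. At 1.5-fold, 8, 9, and 4 genes were higher in cDC1, cDC2, and monocytes (16.8%, 13.3%, and 21.01% of all genes) and 9 lower in migratory DCs (29.4%). Some calls lay below 3-fold: *H2-DMb2* in cDC1 (2.39-fold), *Ciita* in cDC2 (2.93), and *H2-Ab1* in migratory DCs (2.61). In pDCs these were *H2-DMa* (2.07) and *H2-DMb1* (2.83). At 50 CPM, 0 were higher in monocytes (7.48%). Left-out stretches gave 4–5 higher in cDC2, 8–9 lower in pDCs and in Gpnmb macrophages, and the reported count otherwise. With gate minimums doubled, *H2-DMb2* per *H2-DMb1* was 0.0403 in macrophages, 0.0658 in cDC1, and 1.32 in migratory DCs; H2-O per H2-DM was 0.0151 in macrophages and 0.0866 in cDC2; *H2-Aa* per *H2-Ab1* was 0.960, 0.954, and 1.49 in macrophages, cDC2, and migratory DCs; and H2-DM per chain was 0.0495 in macrophages. Over left-out stretches, *H2-DMb2* per *H2-DMb1* was 0.0472–0.0612 in macrophages, 0.0661–0.0817 in cDC1, 0.230–0.278 in cDC2, and 1.01–1.18 in migratory DCs. H2-O per H2-DM was 0.0163–0.0184, 0.129–0.143, 0.0706–0.0807, and 0.169–0.202 in these gates. *H2-Aa* per *H2-Ab1* was 0.934–0.949, 0.849–0.859, 0.860–0.887, and 1.37–1.40, and H2-DM per chain 0.0504–0.0542, 0.0586–0.0607, 0.0668–0.0678, and 0.0270–0.0313. Of 250 shares of cells, 197 were lower at 500 UMIs per cell than at 1000 and 14 were higher. The cause of these changes was not tested. Depth limits *H2-Oa*, *H2-Ob*, *H2-DMb2*, and *Ciita* most, with few UMIs per gate, and the monocyte and CD11c-selected pDC gates hold fewer than 50 cells.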

Other observations

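CD11c-selected cells in no gate (4856 cells) held 51.1% of the matrix's *H2-DMb2* UMIs and 50.4% of its *H2-Oa* UMIs, against 27.9% of its core class II UMIs. Their level was 118 CPM for *H2-DMb2* (114–122) and 68.9 for *H2-Oa* (66.0–72.0). The 8 CD11c-selected B cells had a core level of 36528, and their *H2-DMb2* level was 415. Barcodes under 200 genes (341 and 295) had core levels of 11973 and 4407 CPM.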
